A study of Mus musculus with 72 samples.

Results

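Mitochondrially encoded transcripts are the RNAs made from the small circular genome inside mitochondria. They were taken as all gene symbols that start with mt- in 4 tables of read counts from Eμ-Myc B-lymphoma cells. These were 37 of 38951 gene names over the tables, of which 13 code for proteins, 2 are ribosomal RNAs (rRNAs) and 22 are transfer RNAs (tRNAs). All 37 stand in both relapse tables. The acute input and acute polysomal tables list 23 each, with every protein-coding gene, both rRNAs and 8 tRNAs.

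In the Eμ-Myc mouse a Myc transgene under the immunoglobulin heavy chain enhancer drives lymphoma of B cells, and the transplanted cells also carried an MSCV Gfp construct. In the acute study, C57BL/6 mice bearing clone 4242 were treated for 2 h on day 10 after transplantation. They received CX5461 at 35 mg/kg plus everolimus at 5 mg/kg (the combination), CX5461 alone, everolimus alone or vehicle, and each group has samples numbered 1 to 6, called mice here. The relapse study used lines of another clone (107), cultured for 2 to 3 passages from lymph nodes of mice whose disease had returned under the combination (lines 8, 9 and 31), CX5461 (lines 14, 20 and 39), everolimus (lines 4, 12 and 26) or vehicle (lines 6, 33 and 38, labelled drug-naive). Each study thus rests on 1 clone. CX5461 is an inhibitor of RNA polymerase I, the enzyme that makes the rRNA of cytoplasmic ribosomes from nuclear genes. Everolimus blocks mTORC1, a growth-sensing kinase that stimulates cap-dependent translation. From every mouse or line, cytoplasmic RNA (input) and polysomal RNA, pooled from sucrose gradient fractions with 4 or more ribosomes, were sequenced, for a total of 72 libraries. The labels do not say outright that the numbered samples of a group were separate animals, and the p-values measure the spread between these samples.

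As background, both strands of mitochondrial DNA are transcribed into long RNAs that hold many genes, and most of the other genes are freed when the tRNAs that stand between them are cut out. The proteins are core subunits of the respiratory chain and of ATP synthase. Ribosomes inside the organelle translate these mRNAs, and mt-Rnr1 and mt-Rnr2 are the RNAs of the small and the large subunit of those ribosomes. By the annotation, 28 of the 37 genes lie on the plus strand of the mitochondrial sequence, and the 9 on the minus strand are mt-Nd6 and 8 tRNAs. Neighbouring genes overlap at 9 places, by 43 bases between mt-Atp8 and mt-Atp6, by 14 bases between mt-Nd5 and mt-Nd6 on opposite strands and by 7 bases between mt-Nd4l and mt-Nd4. Whether reads were counted by strand is not given in the sources used here, so the counts of a minus strand gene can include reads of the RNA opposite to it.

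Acute libraries held 17.1 to 24.7 M counts (M for mega) for input and 11.5 to 20.9 M for polysomal RNA, and relapse libraries held 14.6 to 26.02 M for input and 15.5 to 30.4 M for polysomal RNA. The 7 B cell marker genes used, such as Cd79a and Pax5, were detected in both studies. Their CPM (counts per M counts) summed to 1441 to 3021 in the acute input and to 1796 to 3980 in the relapse input. For these marker sums and for the comparison with set-aside libraries below, CPM was taken over the library total. All other CPM were taken after TMM scaling between libraries. Markers of stroma and endothelium summed to 947 to 2065 CPM in the acute input and to 24.2 to 53.1 CPM in the relapse input, and myeloid markers summed to 387 to 738 CPM and to 5.38 to 10.6 CPM. The acute libraries thus held RNA of other cells, and in such bulk samples fewer cells of a type and less RNA per cell cannot be told apart. The polysomal libraries of CX5461 relapse lines 14 and 39 stood apart from the other 10 relapse polysomal libraries and were set aside, so 70 libraries were used. Of the 13 protein-coding genes, 12 were lower in both of these than in all 10 others, as were both rRNAs. For mt-Co1 the set-aside libraries held 1698 and 2486 CPM, against 5885 to 10909 CPM in the others. In the same pair, 6 of 7 nuclear genes that copy mitochondrial sequence had counts of 0.

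The tRNA counts came almost wholly from 1 short cluster, so its sequences are shown first. The cluster runs from base 4950 to base 5326 of chromosome M (GRCm38, positions of GENCODE M21) and holds the tRNAs for tryptophan (mt-Tw), alanine (mt-Ta), asparagine (mt-Tn), cysteine (mt-Tc) and tyrosine (mt-Ty). All but mt-Tw lie on the minus strand. Between mt-Tn and mt-Tc is a gap of 32 bases (chrM:5160-5191), the place where replication of the light strand starts. The 3 with nearly all the counts are written 5′ to 3′ as DNA on their own strand, with the anticodon in capitals.
mt-Tn (chrM:5089-5159, minus strand): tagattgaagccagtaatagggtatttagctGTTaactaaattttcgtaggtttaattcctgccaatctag
mt-Tc (chrM:5192-5257, minus strand): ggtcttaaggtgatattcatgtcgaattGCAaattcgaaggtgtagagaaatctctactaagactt
mt-Ty (chrM:5260-5326, minus strand): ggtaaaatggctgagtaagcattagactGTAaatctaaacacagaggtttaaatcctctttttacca

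These tRNAs are 71, 66 and 67 bases long, and the reads had 50 bases. In the acute input, mt-Tc took 90.4% of all 54599 tRNA counts and mt-Tn 6.7%, while mt-Ty had 1 count over 24 libraries. In the relapse input the order was different, with mt-Tn at 53.8% of 82526 tRNA counts, mt-Ty at 31.6% and mt-Tc at 10.8%. The 3 together made up 97.1% of tRNA counts in the acute input, 96.1% in the relapse input and 46.7% in relapse polysomal RNA. In acute polysomal RNA, where mt-Ty is not listed, mt-Tn and mt-Tc together made up 91.9%. No other tRNA passed 2.6% in the acute input (mt-Tp, for proline) or 0.9% in the relapse input (mt-Te, for glutamate). The studies were counted in separate tables with different lists of genes, and what sets their tRNA order apart was not tested.

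Several protein-coding members have near-identical copies in the nuclear genome, and the counts of these genes are uncertain. Of the 7 copies aligned, 5 matched the mitochondrial gene at every base compared. All 7 lie on the minus strand of chromosome 1 between bases 24611535 and 24616197. The pairs below show 1 gene that cannot be told from its copy over the window and 1 whose copy differs at a single base. The differing base is in capitals and the sequences are written 5′ to 3′.
mt-Atp6 (chrM:7931-7980, plus strand): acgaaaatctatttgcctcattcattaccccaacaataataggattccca
Gm10925 (chr1:24614598-24614647, minus strand): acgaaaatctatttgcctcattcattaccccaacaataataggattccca
mt-Nd3 (chrM:9459-9508, plus strand): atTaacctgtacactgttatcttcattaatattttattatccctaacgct
Gm28438 (chr1:24613070-24613119, minus strand): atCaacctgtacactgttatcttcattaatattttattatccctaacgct

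Counted from the first base of mt-Nd3, that difference is T3C, and it is the lone mismatch in 345 aligned bases. Gm28437 (783 bases of mt-Co3), Gm28661 (681 bases of mt-Co2), Gm10925 (678 bases of mt-Atp6), Gm10222 (294 bases of mt-Nd4l) and Gm28439 (876 of the 1378 bases of mt-Nd4) had no mismatch. Gm29216 matches the last 492 of 1545 bases of mt-Co1 with 6 mismatches. The counts of the full-length copies were close to those of their genes. Over 70 libraries the count of the copy divided by that of the mitochondrial gene had a median of 1.00 for mt-Co2 (0.952 to 1.06), 1.00 for mt-Co3 (0.979 to 1.02), 1.01 for mt-Nd4l (0.883 to 1.19), 1.03 for mt-Nd3 (0.916 to 1.33) and 1.06 for mt-Atp6 (0.979 to 1.13). For the partial copies the median was 0.454 for mt-Nd4 and 0.196 for mt-Co1. The levels of these 7 genes are therefore also given with the copy's counts added.

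**Figure D1:**
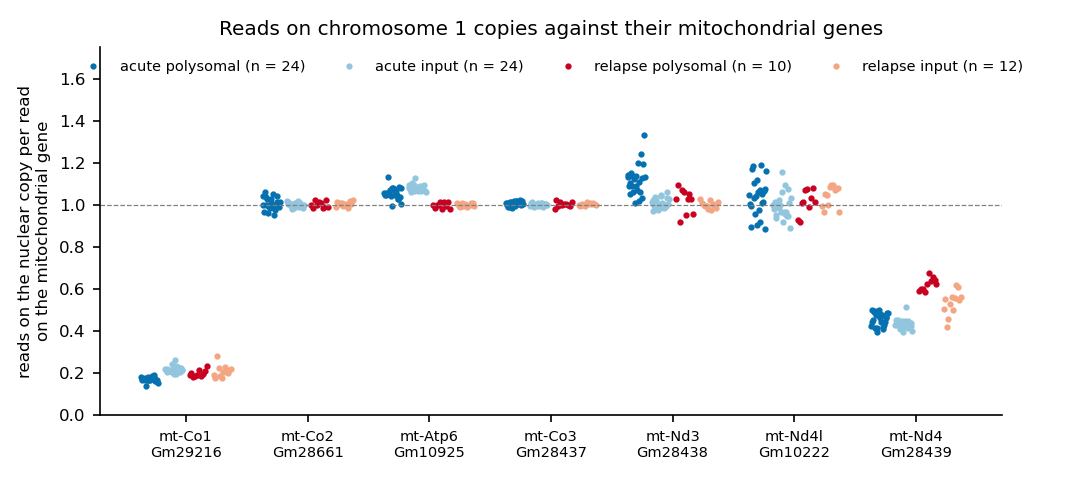
Count of the nuclear copy divided by the count of the mitochondrial gene, 1 point per library, for 7 genes, with the line at 1 marking equal counts. Colours mark the study and fraction of the 70 libraries used. The genes with full-length copies sit near 1, while mt-Nd4 has a median of 0.454 and mt-Co1 a median of 0.196.

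Mitochondrial transcripts took a few percent of the reads, more in the input than in the polysomal libraries. In the acute input all mt- genes together took 3.15 ± 0.24% of counts in combination mice, 3.03 ± 0.37% in CX5461 mice, 2.76 ± 0.50% in everolimus mice and 2.96 ± 0.22% in vehicle mice (SD, n = 6 each). In the acute polysomal RNA the share was 0.949 ± 0.219% in combination mice, 1.22 ± 0.19% in CX5461 mice, 0.961 ± 0.243% in everolimus mice and 0.966 ± 0.116% in vehicle mice. The acute groups overlapped in both fractions. In the relapse input the share was 2.39 ± 0.47% in combination lines, 2.46 ± 0.51% in CX5461 lines, 2.84 ± 0.95% in everolimus lines and 3.53 ± 0.58% in drug-naive lines (SD, n = 3 each). Relapse polysomal RNA held 1.45 ± 0.35% in combination lines, 2.14 ± 0.49% in everolimus lines and 1.89 ± 0.07% in drug-naive lines, and 1.94% in CX5461 line 20. The kit removes ribosomal RNA, so the rRNA counts are what its probes left and say little of the true rRNA level. That remainder was 0.647 to 1.36% of counts in the acute input.

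By length, the cytochrome oxidase and ATP synthase mRNAs stood highest in the input of vehicle mice. With the copies' counts added, mt-Co3 (cytochrome oxidase subunit 3) had 6720 ± 1069 CPM per kilobase and mt-Co1 (the catalytic subunit 1) 5487 ± 332 (SD, n = 6). Their SD ranges overlapped. mt-Atp6, a membrane subunit of ATP synthase, followed at 3549 ± 496 and mt-Co2, which takes electrons from cytochrome c, at 2511 ± 172, each outside the SD range of its neighbours. A middle group whose SD ranges overlapped held mt-Atp8 at 1755 ± 294 (a small ATP synthase subunit), mt-Nd1 at 1579 ± 181, mt-Nd3 at 1485 ± 451 and mt-Cytb at 1413 ± 146, the cytochrome b of complex III. The other complex I subunits were lower, with mt-Nd4 at 965 ± 76.9, mt-Nd5 at 723 ± 54.2, mt-Nd2 at 550 ± 51.9, mt-Nd4l at 334 ± 26.3 and mt-Nd6 at 310 ± 34.1 CPM per kilobase. The order is uncertain where copies take part: without them mt-Co2 dropped to rank 7 of 13 and mt-Co1 was first. mt-Atp8 lies between mt-Co2 and mt-Atp6, whose copies were added, but none of the 7 copies aligned was matched to it. Whether it shares reads with chromosome 1 was not tested. Its rank was 5 with the copies added to the other genes and 3 without them. In the drug-naive input these ranks were 4 and 1. The drug-naive input differed in the order of the leaders, with mt-Atp6 at 5004 ± 1262, mt-Co3 at 4479 ± 937, mt-Co1 at 4340 ± 1896 and mt-Atp8 at 3989 ± 1107 CPM per kilobase (SD, n = 3), all within overlapping SD ranges. mt-Nd4l at 297 ± 83.9 and mt-Nd6 at 342 ± 28.6 were again at the bottom.

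Every mitochondrial transcript tested was depleted from the polysomal fraction in vehicle mice, but by very unequal amounts. mt-Co1 was the least depleted, with a polysomal level at 49.9% of its input level, and mt-Atp8, mt-Tc and mt-Tn were the most depleted, at 5.56%, 5.38% and 5.04%. All 18 members tested were lower in polysomal than in input RNA (edgeR quasi-likelihood test with mouse as block, Benjamini-Hochberg adjusted p under 0.05), against 32.2% of all genes tested. The members' median log2 ratio was -2.28, against -0.07 over all genes. These are ratios of CPM, so they compare a gene's share of each library and not amounts of RNA.

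Among the mRNAs the ratio was highest for the long ones. The log2 ratio of polysomal to input in vehicle mice was -1.002 for mt-Co1 (SE 0.10, adjusted p = 3.03e-09), -1.42 for mt-Nd5 (SE 0.08, adjusted p = 4.61e-14) and -4.17 for mt-Atp8 (SE 0.22, adjusted p = 4.01e-15) by edgeR. mt-Nd4l at -1.53, mt-Cytb at -1.62 and mt-Nd4 at -1.75 came next after mt-Nd5. mt-Co2 at -2.02, mt-Co3 at -2.16 and mt-Nd2 at -2.29 stood in the middle, and mt-Nd6 at -2.80, mt-Atp6 at -3.04, mt-Nd1 at -3.06 and mt-Nd3 at -3.21 were lower. Over single mice mt-Co1 ranged from -1.14 to -0.72, mt-Nd5 from -1.64 to -1.19 and mt-Atp8 from -4.85 to -3.35, so these 3 genes did not overlap. The rRNAs lay inside the range of the mRNAs, with mt-Rnr1 at -2.16 and mt-Rnr2 at -2.26,. mt-Tp at -3.11, mt-Tc at -4.24 and mt-Tn at -4.30 were among the lowest. For comparison, the nuclear non-coding RNAs Rn7sk (a regulator of transcription elongation) and Rpph1 (the RNA of RNase P) averaged -3.34 ± 0.45 and -2.29 ± 0.30 (SD, n = 6 mice).

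**Figure D2:**
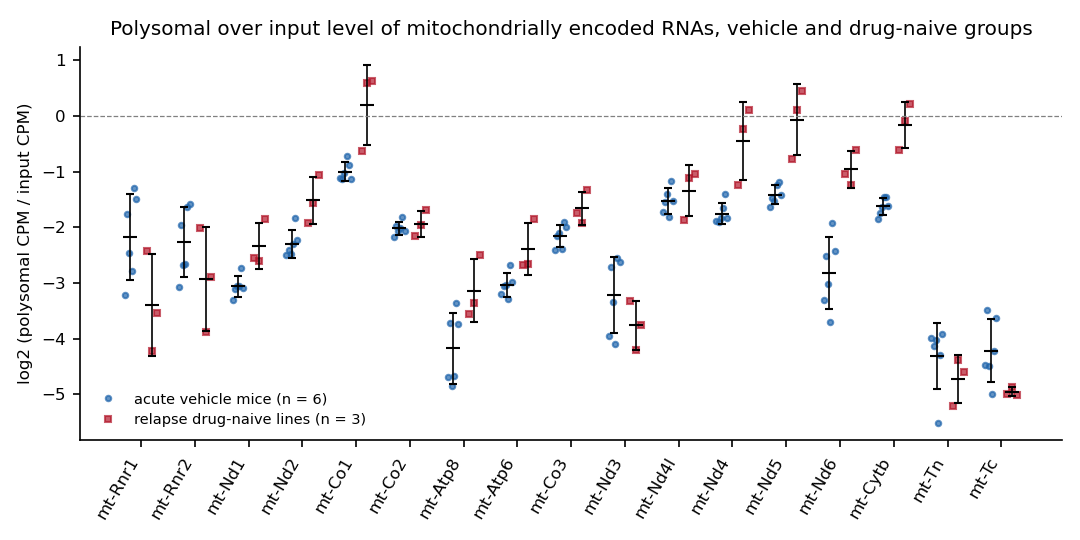
Log2 ratio of polysomal to input CPM for each mitochondrial gene, 1 point per mouse or line of the vehicle and drug-naive groups, with bars for mean ± SD and 0 marking equal levels. In vehicle mice all genes lie below 0 and mt-Co1 is the highest, while in drug-naive lines mt-Co1, mt-Nd5 and mt-Cytb lie around 0.

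In the drug-naive lines depletion was not called for 4 of the longer mRNAs. mt-Co1 had a log2 ratio of 0.20 ± 0.23 (edgeR estimate ± SE, adjusted p = 0.495), mt-Nd5 -0.07 ± 0.24 (adjusted p = 0.83), mt-Cytb -0.16 ± 0.17 (adjusted p = 0.432) and mt-Nd4 -0.45 ± 0.25 (adjusted p = 0.164). The 3 lines spread widely for these, with mt-Co1 at -0.64 in line 6, 0.59 in line 33 and 0.63 in line 38. Of 34 members tested, 16 were lower and 0 higher in polysomal RNA at an adjusted p under 0.05, against 23.9% of all genes tested that were lower, and 0 members were higher also at an unadjusted p under 0.05. The members' median log2 ratio was -0.85, against -0.15 over all genes. The 9 mRNAs that passed ran from mt-Nd6 at -0.96 to mt-Nd3 at -3.76, with mt-Atp8 at -3.14, mt-Atp6 at -2.40 and mt-Nd1 at -2.34 between them. mt-Rnr1 at -3.40 and mt-Rnr2 at -2.93 passed as well. So did 5 tRNAs, led by mt-Ty at -5.58, mt-Tc at -4.95 and mt-Tn at -4.72. Left out in turn, single relapse lines gave 15 to 17 members lower.

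The order of the 13 mRNAs was much alike in the 2 studies, which share no library (Spearman's rho 0.885 over 13 genes, a description, since genes of 1 precursor RNA are not independent). The ratio also went with gene length, with a rho of 0.648 in vehicle mice and of 0.736 in drug-naive lines over the same 13 genes. mt-Nd4l, of 297 bases, stood off that relation, with a polysomal level at 34.6% of input in vehicle mice, while the similarly short mt-Nd3 (348 bases) was at 10.8%. mt-Nd4l is the neighbour of mt-Nd4 and is kept in 1 mRNA with it, as mt-Atp8 is with mt-Atp6. mt-Nd4 stood at 29.7% of input, close to mt-Nd4l, whereas mt-Atp6 and mt-Atp8 stood at 12.2% and 5.56%. The makeup of the mitochondrial mRNA differed between fractions: mt-Co1 took a median of 58.0% of the protein-coding mt- counts in the acute polysomal libraries (53.9 to 62.4%), against 38.8% in the input (33.6 to 41.5%). In the relapse study the medians were 58.0% in polysomal and 38.5% in input libraries.

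**Figure D3:**
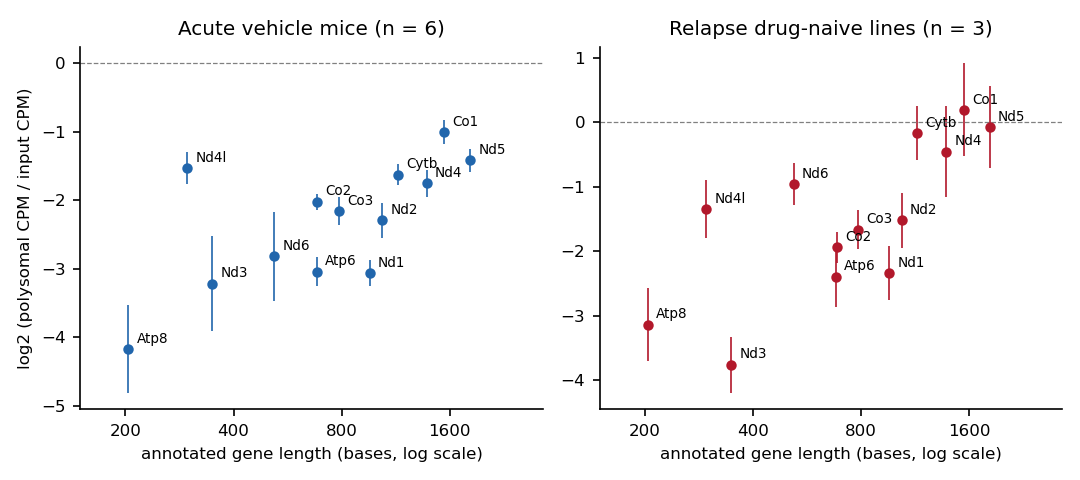
Log2 ratio of polysomal to input CPM (vertical axis) against gene length in bases (horizontal log axis) for the 13 protein-coding genes in the vehicle (n = 6) and drug-naive (n = 3) groups, as mean ± SD. Longer genes sit higher, with a Spearman's rho of 0.648 in vehicle mice and 0.736 in drug-naive lines, and mt-Nd4l sits above other short genes.

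Treatment for 2 h left no mitochondrial transcript called in the input. Of 18 members tested, 0 passed in any of 5 comparisons by edgeR, and DESeq2 also gave 0 in each. Of all genes tested, 7.48% passed for the combination against vehicle, 0.399% for CX5461 against vehicle, 0.106% for everolimus against vehicle, 0.866% for the combination against CX5461 and 0% for the combination against everolimus. At an unadjusted p under 0.05, 1 member was higher with CX5461 (mt-Tp), 1 lower with everolimus (mt-Nd6, -0.35 ± 0.10 on the log2 scale, edgeR adjusted p = 0.178) and 1 higher with the combination (mt-Nd4, 0.24 ± 0.10, adjusted p = 0.119), each against vehicle. Of 16055 genes tested, 1560 passed at that p in either direction with CX5461, 2310 with everolimus and 4777 with the combination. The combination had 1 higher and 4 lower against CX5461, and 2 higher and 0 lower against everolimus. There 4077 and 1754 of all genes passed at that p. The median log2 fold change of the 13 mRNAs was 0.08 with the combination, 0.0055 with CX5461 and -0.09 with everolimus, against -0.0015, 0.0012 and 0.0049 over all genes. For a well-counted member such as mt-Co1 the estimates were 0.15 ± 0.09, 0.05 ± 0.09 and -0.07 ± 0.09 in those comparisons. The comparisons with vehicle share the vehicle mice, and those with the combination share its mice.

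Among the tRNAs, mt-Tc was far higher in single input libraries than in the rest. mt-Tc had 61.3 to 89.9 CPM in combination mice (median 77.3), 85.5 to 388 CPM in CX5461 mice (median 104), 65.5 to 370 CPM in everolimus mice (median 80.0) and 75.2 to 129 CPM in vehicle mice (median 88.3). The high values were 388 CPM in CX5461 mouse 4 and 370 CPM in everolimus mouse 2, and every other library was at or below 130 CPM. In both of these libraries Gm26870 and Gm10800, nuclear loci of repeated sequence, were also far above the usual. CX5461 mouse 6, with Gm26870 at 8.80% and Gm10800 at 6.19% of counts, had mt-Tc at 130 CPM. Leaving out the 3 input libraries richest in these left the count of called members at 0.

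In the polysomal RNA, 5 mitochondrial mRNAs were lower with the combination than with CX5461, and 1 was lower than with vehicle. mt-Nd2, a core subunit of complex I, was the member that passed against both CX5461 and vehicle. Of 16 members tested, 5 were lower with the combination than with CX5461 and 0 were higher, against 10.5% of all genes tested that were lower. DESeq2 called 7 lower and 0 higher, but the share of all genes called by DESeq2 is not given here. Of the 5 mRNAs, 4 are of complex I, which takes 7 of the 13 mitochondrial mRNAs, and mt-Nd1, mt-Nd3 and mt-Nd6 did not pass.

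mt-Nd2 had 81.5 to 122.2 CPM in polysomal RNA of combination mice (median 97.9), 122.6 to 184 CPM in CX5461 mice (median 158), 78.7 to 163 CPM in everolimus mice (median 119) and 124 to 168 CPM in vehicle mice (median 142). The highest combination mouse was thus just under the lowest CX5461 and vehicle mice, while everolimus mice overlapped with all groups. Against CX5461 the log2 fold change was -0.65 ± 0.14 (SE, edgeR adjusted p = 0.00324) and against vehicle -0.52 ± 0.14 (adjusted p = 0.0325). mt-Nd5, a proton-pumping subunit, had 441 to 593 CPM in combination mice (median 506) and 598 to 784 CPM in CX5461 mice (median 694), with no overlap, and vehicle mice at 548 to 677 CPM overlapped with the combination. Its log2 fold change against CX5461 was -0.44 ± 0.11 (edgeR adjusted p = 0.00523). mt-Nd4l, a small membrane subunit, had 15.2 to 19.8 CPM in combination mice and 20.0 to 31.3 CPM in CX5461 mice, again without overlap (-0.39 ± 0.14, adjusted p = 0.0426). For mt-Nd4 (-0.41 ± 0.12, adjusted p = 0.0187) and mt-Cytb (-0.41 ± 0.12, adjusted p = 0.0199) the ranges of the combination and CX5461 overlapped.

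**Figure D4:**
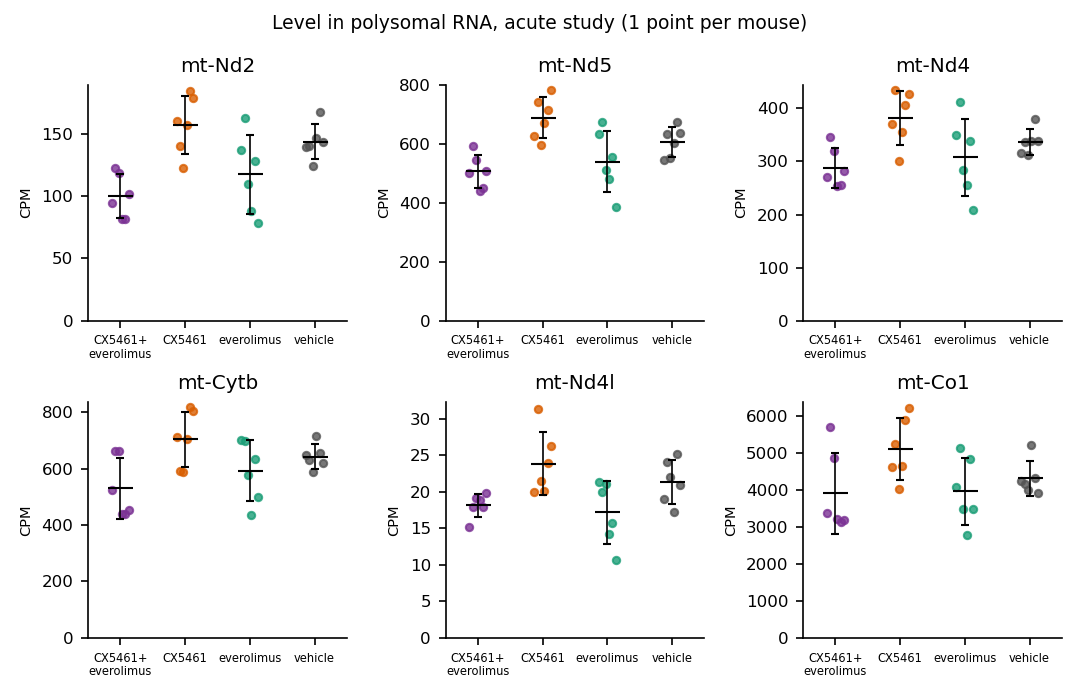
CPM in acute polysomal RNA for the 5 mRNAs called lower with the combination than with CX5461 and for mt-Co1, 1 point per mouse and mean ± SD of each group (n = 6), with treated groups left of vehicle. The combination mice sit below all CX5461 mice for mt-Nd2, mt-Nd5 and mt-Nd4l.

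All 16 estimates were negative in the comparison of the combination with CX5461, with a median over the mRNAs of -0.39 against -0.0065 over all genes. mt-Atp8 had -0.68 ± 0.27 (adjusted p = 0.0679), mt-Co1 -0.38 ± 0.16 (adjusted p = 0.0753) and mt-Nd1 -0.31 ± 0.13 (adjusted p = 0.071) by edgeR. Against vehicle the combination had 1 member lower, against 2.95% of all genes tested, and again all 16 estimates were negative, with a median of -0.23 over the mRNAs. CX5461 and everolimus alone had 0 members called against vehicle by edgeR and by DESeq2, where 0.878% and 0.15% of all genes passed. At an unadjusted p under 0.05 there were 0 members with CX5461 and 1 lower with everolimus. Of 15374 genes tested, 2478 and 1683 passed at that p in either direction. The combination against everolimus had 0 called by both tools, against 0.0195% of all genes. It had 1 lower at an unadjusted p under 0.05, where 2271 of 15374 genes passed in either direction. The median over the mRNAs was 0.13 with CX5461 and -0.12 with everolimus.

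The calls in the polysomal RNA leaned on a few libraries. Those of CX5461 mouse 6 and vehicle mice 2, 5 and 6 held many counts on Lars2 and Yam1 (7.15 to 18.1% of the library on Lars2). Without these 4, mt-Nd2 was no longer called against vehicle (-0.45, adjusted p = 0.0965), and 2 members, mt-Nd2 (-0.61, adjusted p = 0.0148) and mt-Nd5, were called against CX5461. Stroma and endothelium markers, 8 of 8 detected, summed to 1592 to 2205 CPM in polysomal RNA of combination mice, 1263 to 2254 CPM in CX5461 mice and 1043 to 1860 CPM in vehicle mice, and their part in these results was not tested. The nuclear non-coding RNAs were higher in the same polysomal libraries of the combination than of CX5461, Rn7sk by 0.76 ± 0.18 (edgeR adjusted p = 0.00469) and Rpph1 by 0.62 ± 0.18 (adjusted p = 0.0153). Against vehicle Rn7sk was higher by 0.60 ± 0.18 (adjusted p = 0.0417). Their part was not tested either.

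For the ratio of polysomal to input level, no member was called after 2 h with the count filter in place. Of 18 members, 0 passed for the combination, CX5461 or everolimus against vehicle by edgeR or DESeq2, and 0% of all genes tested passed in each of the 3 comparisons. With no count filter 7 members were called lower for the combination, and the share of all genes called under that setting is not given here. With the combination 8 members were lower and 0 higher at an unadjusted p under 0.05, where 2147 of 16421 genes passed in either direction. All 13 mRNA estimates were negative, with a median of -0.33 against 0.03 over all genes. mt-Nd2 had the largest drop among the mRNAs, with a change in log2 ratio of -0.51 ± 0.15 (adjusted p = 0.231), and mt-Nd4 followed with -0.46 ± 0.15 (adjusted p = 0.249). The polysomal level of mt-Nd2 was 14.4% of its input level in combination mice, 23.2% in CX5461 mice, 18.6% in everolimus mice and 20.4% in vehicle mice. CX5461 had 1 member higher at an unadjusted p under 0.05 (mt-Nd4l, 0.28 ± 0.13) and everolimus 0. Of 16421 genes tested, 796 and 1074 passed at that p in either direction.

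In the relapse input, 3 tRNAs of the cluster shown above were higher in CX5461 lines than in drug-naive lines. mt-Tn, mt-Tc and mt-Ty each rose by about 1 on the log2 scale, and no mRNA or rRNA passed. Of 27 members tested, 3 were higher and 0 lower by edgeR, against 4.61% of all genes tested that were higher. DESeq2 called 3 higher and 1 lower, and its share of all genes is not given. The 3 genes are neighbours on the minus strand and can come from 1 precursor, so they are not independent.

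mt-Tn had 191, 200 and 372 CPM in CX5461 lines 14, 20 and 39, against 115, 97.6 and 124 CPM in drug-naive lines 6, 33 and 38. The log2 fold change was 1.18 ± 0.25 (SE, edgeR adjusted p = 0.0141). mt-Ty had 122, 109 and 197 CPM in the CX5461 lines and 58.6, 69.0 and 82.2 CPM in the drug-naive lines (1.03 ± 0.23, adjusted p = 0.0186). mt-Tc had 37.5, 35.4 and 78.3 CPM in the CX5461 lines and 20.9, 18.5 and 28.5 CPM in the drug-naive lines (1.16 ± 0.28, adjusted p = 0.0288). Line 39 was the highest CX5461 line each time, and the groups did not overlap for any of the 3. mt-Nd6, on the same strand, had 150, 171 and 199 CPM in the CX5461 lines and 184, 188 and 161 CPM in the drug-naive lines (-0.04 ± 0.16, adjusted p = 0.932). The nuclear small RNA Rn7sk was higher in the same comparison (0.72 ± 0.20, edgeR adjusted p = 0.0464), and also in everolimus lines (0.94 ± 0.20, adjusted p = 0.0194) and combination lines (1.12 ± 0.20, adjusted p = 0.00577), and its part in the tRNA result was not tested.

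Everolimus and combination lines did not pass for the same tRNAs, with estimates between 0.59 and 0.79. mt-Tn had 198, 146 and 239 CPM in everolimus lines 4, 12 and 26 (0.79 ± 0.24 against drug-naive, edgeR adjusted p = 0.0559) and 168, 168 and 173 CPM in combination lines 8, 9 and 31 (0.60 ± 0.24, adjusted p = 0.122), all above the 3 drug-naive lines. The call for CX5461 was lost for all 3 tRNAs without drug-naive line 33 (mt-Tn 1.10, adjusted p = 0.0648) and for mt-Ty and mt-Tc without drug-naive line 6 (adjusted p = 0.0545 and 0.0772) or without CX5461 line 39, where mt-Tn stayed called at 0.80 (adjusted p = 0.0415). It was also lost for all 3 when CX5461 and drug-naive lines were fitted alone (mt-Tn 1.18, adjusted p = 0.0564).

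**Figure D5:**
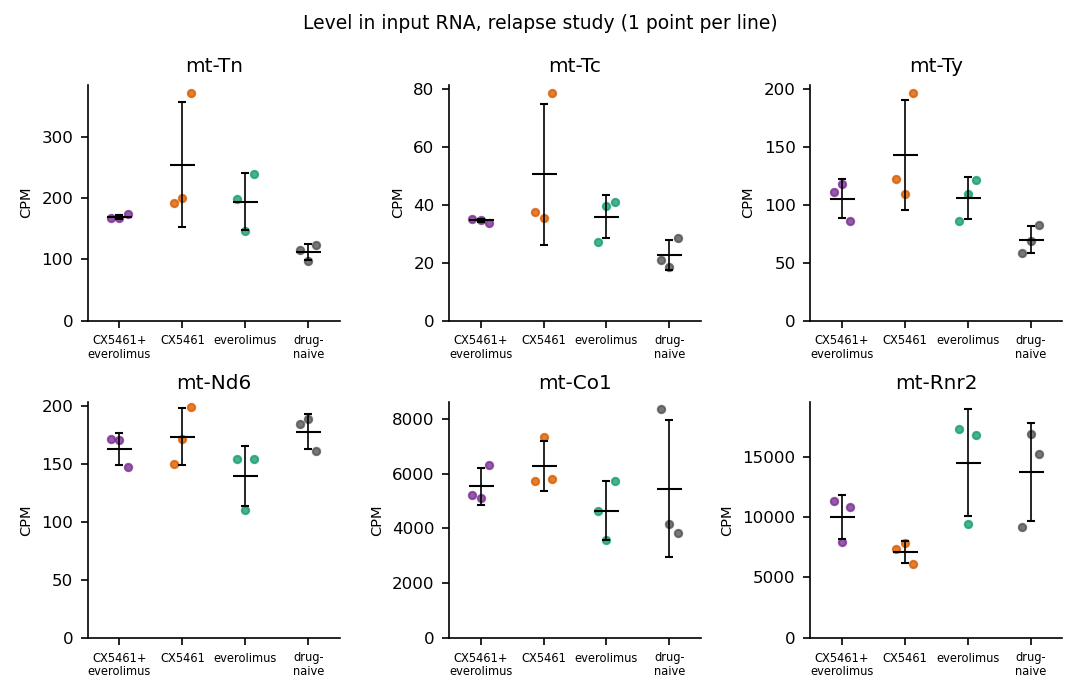
CPM in the relapse input for mt-Tn, mt-Ty, mt-Tc and other members, 1 point per line and mean ± SD (n = 3 per group), with relapse groups left of the drug-naive group. For the 3 tRNAs all CX5461 lines sit above all drug-naive lines, while mt-Nd6 overlaps.

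The mRNAs of the relapse input tended the other way without passing, as did both rRNAs in CX5461 and combination lines. In everolimus lines 1 rRNA estimate was positive and 1 negative. The rRNA counts are what the depletion probes left. In each comparison with drug-naive lines 12 of 13 mRNA estimates were negative, with medians of -0.39 for the combination, -0.34 for CX5461 and -0.35 for everolimus, against -0.02, -0.03 and -0.0076 over all genes. mt-Rnr2 had 7359, 7838 and 6075 CPM in CX5461 lines 14, 20 and 39, against 9175, 16905 and 15195 CPM in drug-naive lines 6, 33 and 38, with no overlap (-0.96 ± 0.28, edgeR adjusted p = 0.0545). mt-Nd4, a complex I subunit, had 320, 289 and 359 CPM in combination lines 8, 9 and 31, against 818, 483 and 416 CPM in the drug-naive lines (-0.83 ± 0.27, adjusted p = 0.0644). mt-Co3 had 998, 927 and 1133 CPM in the combination lines, against 1792, 2099 and 1372 CPM in the drug-naive lines (-0.78 ± 0.27, adjusted p = 0.0755).

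Everolimus lines had 0 members called against drug-naive lines by edgeR, against 11.7% of all genes, and 2 called by DESeq2. At an unadjusted p under 0.05, 3 were higher and 3 lower, where 4460 of 14474 genes passed in either direction. Combination lines had 0 called by edgeR, against 13.5% of all genes, and 3 called by DESeq2. At an unadjusted p under 0.05, 2 were higher and 7 lower, where 4415 of 14474 genes passed in either direction. These counts of called members depend on the setting. With a term for the 2 alphabetical runs of columns in the relapse files, 8 members were called for everolimus and 6 for the combination. With no count filter there were 6 and 6. The shares of all genes printed here are of the main edgeR fit, and those under DESeq2 or these settings are not given. The combination against CX5461 had 0 called, against 0.0207% of all genes. It had 2 lower at an unadjusted p under 0.05, where 1262 of 14474 genes passed in either direction. The combination against everolimus had 0 called, against 0.719% of all genes. It had 0 at an unadjusted p under 0.05, where 1888 of 14474 genes passed in either direction. DESeq2 gave 0 for these last comparisons. All comparisons with drug-naive lines share those 3 lines.

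In the relapse polysomal RNA, mt-Cytb was the 1 member called. It encodes cytochrome b, the mitochondrially encoded subunit of complex III. mt-Cytb had 979, 816 and 785 CPM in combination lines 8, 9 and 31, against 1481, 1071 and 1294 CPM in everolimus lines 4, 12 and 26 and 1311, 1190 and 1251 CPM in drug-naive lines 6, 33 and 38. All 3 combination lines were below all lines of both other groups. The log2 fold change was -0.54 ± 0.14 against drug-naive (edgeR adjusted p = 0.0221) and -0.58 ± 0.14 against everolimus (adjusted p = 0.0396), comparisons that share the combination lines. This was 1 of 32 members tested in each, where 11.4% and 3.66% of all genes were lower, so the count was not above the background. Rn7sk was higher in the same comparisons, by 1.40 ± 0.20 against drug-naive (edgeR adjusted p = 0.00126) and by 0.79 ± 0.20 against everolimus (adjusted p = 0.0414), and its part in the result was not tested.

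That call was weak against the choice of lines and settings. Over all settings, left-out lines among them, the call was lost in 5 against drug-naive and in 8 against everolimus. The edgeR adjusted p reached 0.615 and 0.706. Against drug-naive lines it was lost without combination line 9 or 31 or without drug-naive line 6 or 38 (adjusted p = 0.0552 to 0.0814), and against everolimus without combination line 9 or 31, drug-naive line 33 or 38 or everolimus line 4 or 26 (adjusted p = 0.0589 to 0.131). Over the 13 mRNAs the combination had a median log2 fold change of -0.34 against drug-naive, against 0.0065 over all genes, with 11 of 13 negative, among them mt-Nd5 at -0.65 ± 0.25 (adjusted p = 0.0871) and mt-Nd2 at -0.62 ± 0.27 (adjusted p = 0.131).

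The other relapse polysomal comparisons had no call. CX5461, with line 20 alone and assumed to vary like the other groups, had 0 members called by edgeR, against 3.41% of all genes. DESeq2 also called 0. Of 32 member estimates 27 were positive and 5 negative, with a median log2 fold change of 0.21, against -0.02 over all genes. With 1 line the spread within CX5461 could not be measured. Everolimus had 0 called by edgeR, against 0.486% of all genes, and 1 called by DESeq2, whose share of all genes is not given. At an unadjusted p under 0.05, 8 members were lower, all of them tRNAs, where 2106 of 15434 genes passed in either direction. All 17 tRNA estimates of the everolimus lines were negative, with a median of -1.04 against -0.0071 over all genes, but these tRNAs had few counts. For the 3 abundant ones the estimates were -0.09 (mt-Tn), -0.13 (mt-Tc) and -0.15 (mt-Ty).

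The ratio of polysomal to input level differed between relapse and drug-naive lines for 0 of 34 members and 0% of all genes in each of the 3 comparisons by edgeR. At an unadjusted p under 0.05 there were 0 higher and 2 lower with the combination and 3 higher and 4 lower with everolimus. Of 16978 genes tested, 925 and 2326 passed at that p in either direction. DESeq2 called 0 members for the combination and 3 for everolimus, and its share of all genes is not given. Estimates for single lines spread widely, so changes of moderate size were not detectable here. The largest change among rRNAs was in CX5461 line 20, where mt-Rnr1 had a log2 ratio of -1.68 against -2.42, -4.23 and -3.54 in drug-naive lines 6, 33 and 38 (difference 1.72 ± 0.50, adjusted p = 0.841). mt-Co1 had 0.17, -0.28 and -0.71 in combination lines 8, 9 and 31, -0.34 in CX5461 line 20 and 0.56, 0.47 and 0.32 in everolimus lines 4, 12 and 26, all within the drug-naive spread but for combination line 31.

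Nuclear genes that act on these transcripts were counted in 3 lists, with 19 tested genes for upkeep and transcription of mitochondrial DNA, 29 for processing, stability and decay of its RNA and 16 translation factors. In the acute input, 1 upkeep gene passed for the combination against vehicle, Tfb2m (a transcription initiation factor, 0.27 ± 0.07, edgeR adjusted p = 0.0217), with 1 higher and 1 lower processing gene and 1 higher and 2 lower translation factors, among them Tufm (elongation factor Tu, -0.40 ± 0.11, adjusted p = 0.0313). Of all genes, 3.31% were higher and 4.17% lower in that comparison. The other acute input comparisons had 0 in all 3 lists.

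In acute polysomal RNA of the combination against CX5461, the upkeep list had 3 higher and 1 lower, the processing list 3 higher and 5 lower and the translation list 0. Of all genes, 13.1% were higher and 10.5% lower, so these counts are near the background. Peo1, the mitochondrial DNA helicase, was 0.25 ± 0.06 (edgeR adjusted p = 0.00558) and Polg, the DNA polymerase, 0.27 ± 0.07 (adjusted p = 0.00849). Tfam, which packages mitochondrial DNA and starts its transcription, was -0.20 ± 0.07 (adjusted p = 0.0371). Grsf1, an RNA granule protein, fell by 0.34 ± 0.08 (adjusted p = 0.00582) and Rexo2, a nuclease of short RNAs, by 0.30 ± 0.07 (adjusted p = 0.00699).

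In the relapse input, Ssbp1, which coats single-stranded mitochondrial DNA, was lower in all 3 groups than in drug-naive lines. It had -1.09 ± 0.19 in combination lines (edgeR adjusted p = 0.00482), -1.04 ± 0.19 in CX5461 lines (adjusted p = 0.00735) and -0.78 ± 0.19 in everolimus lines (adjusted p = 0.0255). It was the 1 upkeep gene of 19 called lower in each group, and 1 was called higher in combination lines. Of all genes, 6.31% were lower in combination lines, 3.76% in CX5461 lines and 5.46% in everolimus lines, so these counts are near the background. The processing list had 4 higher and 0 lower in CX5461 lines, among them Tbrg4, a FASTK family RNA-binding protein (0.54 ± 0.12, adjusted p = 0.0231), and Mto1, which modifies mitochondrial tRNAs (0.56 ± 0.14, adjusted p = 0.0282). Of all genes, 4.61% were higher and 3.76% lower in that comparison. Trmt10c, a subunit of the enzyme that cuts the 5′ end of mitochondrial tRNAs, was lower in everolimus lines (-0.88 ± 0.18, adjusted p = 0.0176) and in combination lines (-0.69 ± 0.18, adjusted p = 0.0259). Trmt10c was not called in CX5461 lines. The processing list had 1 higher and 3 lower in everolimus lines, where 6.25% of all genes were higher and 5.46% lower. In combination lines it had 3 higher and 1 lower, where 7.2% of all genes were higher and 6.31% lower. The elongation factors Gfm1 and Tufm were higher in combination lines in the input (0.64 ± 0.12, adjusted p = 0.00735, and 0.55 ± 0.16, adjusted p = 0.0457) and in the polysomal RNA (0.53 ± 0.10, adjusted p = 0.00361, and 0.49 ± 0.11, adjusted p = 0.0118). These are opposite in sign to mt-Cytb in the same polysomal libraries.

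Unlike the mitochondrial mRNAs, the mRNAs of these nuclear lists were on balance higher in polysomal than in input RNA. In vehicle mice 9 upkeep genes were higher and 3 lower, with a median log2 ratio of 0.21, 13 processing genes higher and 7 lower (median 0.13) and 7 translation factors higher and 1 lower (median 0.11), against a median of -0.07 over all genes, of which 24.7% were higher and 32.2% lower. In drug-naive lines these were 9 higher and 3 lower (0.35), 13 higher and 2 lower (0.19) and 7 higher and 3 lower (0.29), against -0.15 over all genes, of which 24.4% were higher and 23.9% lower. Nsun2, which methylates tRNAs, had 0.82 ± 0.05 in vehicle mice (edgeR adjusted p = 5.58e-14) and 1.16 ± 0.12 in drug-naive lines (adjusted p = 1.61e-05). Tfam had 0.80 ± 0.06 in vehicle mice (adjusted p = 9.27e-12) and 0.99 ± 0.15 in drug-naive lines (adjusted p = 0.000197).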

How the data were processed

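Ribosome-depleted RNA was sequenced as single reads of 50 bases. The deposited values are counts of reads per gene, with no normalization, made by the authors with TopHat2 and HTSeq on GRCm38, per the submitters' processing notes. The strand setting and versions are not given in the sources used here. Members and gene lists were chosen with earlier results of these data known.

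Counts were scaled by the TMM method and filtered with filterByExpr, and all 4 treatments of a study and fraction were fitted together with edgeR 4.0.16 in R 4.3.3 (quasi-likelihood test, 2-sided, Benjamini-Hochberg over all genes, threshold 0.05). Polysomal over input was fitted as fraction by treatment with mouse or line as block. CPM are TMM-scaled except for marker sums and the comparison with the set-aside libraries. SE is the log2 fold change divided by the square root of F. The script was tested on simulated data. All members were described, those called or near the threshold by value, and from each nuclear list at most 2 genes per direction and comparison, taken from those with the smallest adjusted p, were named. DESeq2 1.42.0, other scalings and filters, added copies and left-out libraries were the alternatives. 1 gene of the B cell marker list is not reported here.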

Additional observations from a re-analysis of the deposited data

Results flagged for a closer look

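Of 204 groups of 6 mice checked, 11 had 1 sample far from the rest by Dixon's criterion, about the share that chance gives (1 in 20). In the input these were mt-Nd1 in CX5461 mouse 5 (1219 CPM, the nearest other at 1456), mt-Atp8 in everolimus mouse 2 (500.4 CPM, next 322), mt-Nd3 in the same mouse (390 CPM, next 242), the tRNA share in CX5461 mouse 4 (0.0292% of counts, next 0.0123%) and in everolimus mouse 2 (0.0329%, next 0.0119%), and the protein-coding share in everolimus mouse 4 (1.24%, next 1.82%). In CX5461 mouse 4 and everolimus mouse 2, Gm26870 took 13.7% and 11.1% of the input counts, and its part in the tRNA share was not tested.

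In the polysomal RNA the samples were mt-Co1 in vehicle mouse 4 (5208 CPM, next 4316), mt-Co2 in combination mouse 2 (350.2 CPM, next 241) and mt-Nd6 in combination mouse 6 (33.4 CPM, next 21.0). Among log2 ratios of polysomal to input they were mt-Nd4 in CX5461 mouse 3 (-2.20, next -1.58) and mt-Nd6 in combination mouse 6 (-2.05, next -3.08).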

How the results depend on the processing

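No called member changed direction. The median over the mRNAs, which has no test, turned sign under some settings, by the most with the set-aside libraries (given below with their main values). Counts of called members moved under these settings, for which the share of all genes called is not given here. With DESeq2 the relapse input had 2 for everolimus and 3 for the combination, the polysomal RNA 1, 2 and 2 (everolimus, combination, combination against everolimus) and the ratio of polysomal to input 3 for everolimus. With no count filter there were 7 for the acute ratio with the combination, 6 and 6 in the relapse input (everolimus, combination), 1, 7, 4 and 11 in the polysomal RNA (CX5461, everolimus, combination, combination against everolimus), and 3 and 3 for the ratio (CX5461, everolimus). With the compared groups alone, the relapse input had 0 for CX5461 and 2 for the combination, and the combination against everolimus had 0 in polysomal RNA. Without the 4 polysomal libraries rich in Lars2, the acute combination had 0 against vehicle and 2 against CX5461. With the set-aside libraries, the relapse polysomal RNA had 2, 0 and 0 (CX5461, combination, combination against everolimus), with the CX5461 median over the mRNAs at -0.90 (0.15 without them), and at -1.27 for the ratio (0.13 without them). With a term for the 2 alphabetical runs in which the relapse columns stand, a choice made after seeing the data, the input had 7, 8 and 6 (CX5461, everolimus, combination) and the polysomal RNA 2, 1 and 2. The cause was not tested.

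Leaving out 1 line at a time gave 0 to 4 for CX5461, 0 to 2 for everolimus and 0 to 1 for the combination in the relapse input, 0 to 1 for CX5461, 0 to 4 for the combination and 0 to 5 for the combination against everolimus in polysomal RNA, and 0 to 1 for CX5461 and for everolimus in the ratio. In the acute study same-numbered samples did not deviate together (mean r 0.02 for input and -0.02 for polysomal RNA), and with the replicate block mt-Nd2 of the combination was -0.65 against CX5461 (adjusted p = 0.00575) and -0.52 against vehicle (adjusted p = 0.0442), with no call changed. No paired analysis was possible because the relapse lines share no numbers between groups. Added nuclear copies and RLE scaling moved no count.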

Other observations

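CPM in this paragraph are over the library total. In the set-aside polysomal libraries of CX5461 lines 14 and 39, mt-Ts1 (a serine tRNA) had 37.4 and 64.1 CPM, against 0.45 to 2.55 CPM in the other 10 relapse polysomal libraries. mt-Tc had 3.51 and 4.94 CPM there, against 0.85 to 2.57 CPM. mt-Nd6, on the minus strand like both tRNAs, was lower, with 33.2 and 35.4 CPM against 100.3 to 192 CPM.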
